A study of Homo sapiens with 42 samples.

Results

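Metallothioneins were followed in Hep3B cells through the probes that name only MT1E, MT1G, MT1X or MT2A in the array's gene annotation. They are 4 of the 5631 genes that a probe names alone, read by 7 of the 13824 probes on each array: probe 2764 for MT1E, 2848 for MT1G, 4431 and 8201 for MT1X, and 28, 9113 and 9142 for MT2A. Hep3B is an established human hepatoma cell line. It was cultured with CM, a medium rich in inflammatory cytokines per the labels, or NCM, which serves as the control, and the labels ask how messenger RNA differed between these media as time went on. Each medium was sampled at 7 times, T0, then 15 and 30 min, then 1, 3, 6 and 16 h, and the 14 combinations of medium and time had 3 arrays each, 42 in total. The labels name no genetic change, and all groups share the cell line. At each time, 3 independent experiments each gave 1 CM and 1 NCM culture from the same batch of cells, which makes 3 pairs.

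Metallothioneins are small, cysteine-rich proteins that bind zinc, copper and cadmium and buffer the free metal in the cell. Their genes lie in a cluster, and in liver they are known as targets of metals through the factor MTF-1, of glucocorticoids, and of interleukin-6 in the acute phase response. In the RefSeq annotation of GRCh38.p14 all 4 genes lie on chromosome 16, in the order MT2A, MT1E, MT1G and MT1X. Their transcripts are very alike in sequence, so a probe may take up transcripts of more than 1 family member, and how far this occurred here was not tested.

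The promoters show the elements for which the family is known. RefSeq's promoter table for GRCh38.p14 held 2 of the 4 genes, MT1X and MT2A, and the table's windows run from 250 bases before to 50 bases after the start of the gene. Capitals mark the core of the metal response element to which MTF-1 binds, searched as TGCACNC and TGCGCNC on both strands. MT2A lies on the plus strand and its window is chr16:56608334-56608633. MT1X lies on the plus strand and its window is chr16:56682220-56682519.
MT2A: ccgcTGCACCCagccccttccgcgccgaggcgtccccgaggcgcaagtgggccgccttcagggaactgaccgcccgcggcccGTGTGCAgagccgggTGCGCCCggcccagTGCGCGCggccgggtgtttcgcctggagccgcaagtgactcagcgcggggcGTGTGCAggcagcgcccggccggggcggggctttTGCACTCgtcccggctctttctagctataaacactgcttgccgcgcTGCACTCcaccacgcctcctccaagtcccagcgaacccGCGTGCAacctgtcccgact
MT1X: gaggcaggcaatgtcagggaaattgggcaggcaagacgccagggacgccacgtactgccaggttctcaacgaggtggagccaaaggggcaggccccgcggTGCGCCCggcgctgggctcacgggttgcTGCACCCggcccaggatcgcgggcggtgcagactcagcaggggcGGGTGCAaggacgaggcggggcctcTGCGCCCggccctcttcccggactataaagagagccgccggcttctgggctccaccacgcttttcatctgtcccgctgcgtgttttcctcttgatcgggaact

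The MT2A window held 8 cores, the nearest to the start of the gene at base -8 and, on the other strand, 30. In the MT1X window there were 4, with first bases at -150, -122, -78 and -53. Of 35116 promoter windows of this length, 29.6% held at least 1 core, 0.601% at least 4 and 0.0199% at least 8. Both windows also held a TATAAA on the plus strand, as did 7.33% of all windows, at base -29 in MT2A and -30 in MT1X. MT2A alone of the pair held TTCNNNGAA, the letters of a STAT site, at base -194, and TGANTCA, those of an AP-1 site, at -104. Searched on both strands, these occurred in 7.66% and 7.71% of all windows, and neither overlapped a core. A match is a description of the letters and not a binding site shown by these data.

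The hepatoma label was set against marker genes, as a description, since probes differ in brightness for the same amount of RNA. All 10 of 10 hepatocyte markers were measured, with median intensities over the arrays from 0.671 for APOB to 4.80 for AFP and 3.22 for ALB, each above the array median of 0.52. Their summed level ran from 20.9 to 29.7 in CM and from 21.2 to 29.2 in NCM. Of markers of other cells, 3 of 6 were measured for monocytes and macrophages, 4 of 5 for fibroblasts, 4 of 5 for endothelium and 1 of 5 for T cells. Of these 2, 2, 0 and 0 lay above the array median. Above it were CD14 at 0.774 and CSF1R at 0.531 for monocytes and macrophages, and DCN at 1.25 and COL1A1 at 0.568 for fibroblasts, with DCN as bright as APOA1, also at 1.25. PTPRC, the pan-leukocyte marker, at 0.448 and CD3D, the T cell marker, at 0.342 lay below it. The summed monocyte and macrophage level was 1.20 to 2.42 in CM and 1.34 to 2.39 in NCM, the summed fibroblast level 1.63 to 3.76 and 2.11 to 3.67, and the summed endothelial level 1.07 to 2.28 and 1.03 to 2.12. Mean intensity per array was 0.999 to 1.00 as deposited and the median 0.354 to 0.807; after normalization every array had a median of 0.52. Precision is limited by the number of arrays.

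Part of the metallothionein values were not separate measurements. At a given time, some probes carried exactly the same deposited values as another probe on all 6 arrays of that time. Over the 7 times there were 34 such sets of 2 probes, and 8 of them held a metallothionein probe. MT2A probes 28 and 9113 had the same values at T0 and at 16 h. At 1 h MT1X probe 8201 had those of MT1H probe 7553, a further metallothionein. At 3 h MT1E had those of MT1X probe 4431, MT1G those of MT2A probe 28, and MT1X probe 8201 those of MT1H probe 3848. At 6 h MT1E had those of MT2A probe 9113, and MT2A probe 28 those of MT1H probe 3848. This touched 13 of the 49 combinations of probe and time and 6 of the 7 probes, with MT2A probe 9142 as the 1 probe that had its own values throughout. Probes with identical values are counted once at that time, which leaves 44 distinct sets. The files do not show which of the probes was measured, and the source of the identity was not tested.

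No metallothionein probe passed the threshold in CM against NCM at any time. Among the 44 sets, limma with Benjamini-Hochberg adjustment over all probes called 0 at an adjusted p under 0.05, with adjusted p from 0.942 to 1.00, and 1 had an unadjusted p under 0.05. Over all probes the share called was 0% at T0, 15 min, 30 min, 1 h, 3 h and 6 h, and 0.00723% at 16 h. Of all probes, 4.04% had an unadjusted p under 0.05 over the 7 times together, and 4.38% at 1 h, where the 1 metallothionein set lay. The changes were small but leaned to CM: 32 of 44 sets had a change above 0, or 72.7%, against 50.5% over all probes and times. Part of this lean was present at T0, where 6 of 6 sets had a change above 0, against 51.9% of all probes. In 8 of the 44 sets, or 18.2%, CM was higher in 3 of 3 pairs, against 12.4% over all probes and times, and in 0 of 44 it was lower in 3 of 3, against 11.3%. Among the 36 sets that no other probe shared, 24 had a change above 0 and 4, or 11.1%, were higher in 3 of 3 pairs. The sets share arrays and a gene cluster and are not independent, so these counts carry no test.

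**Figure D1:**
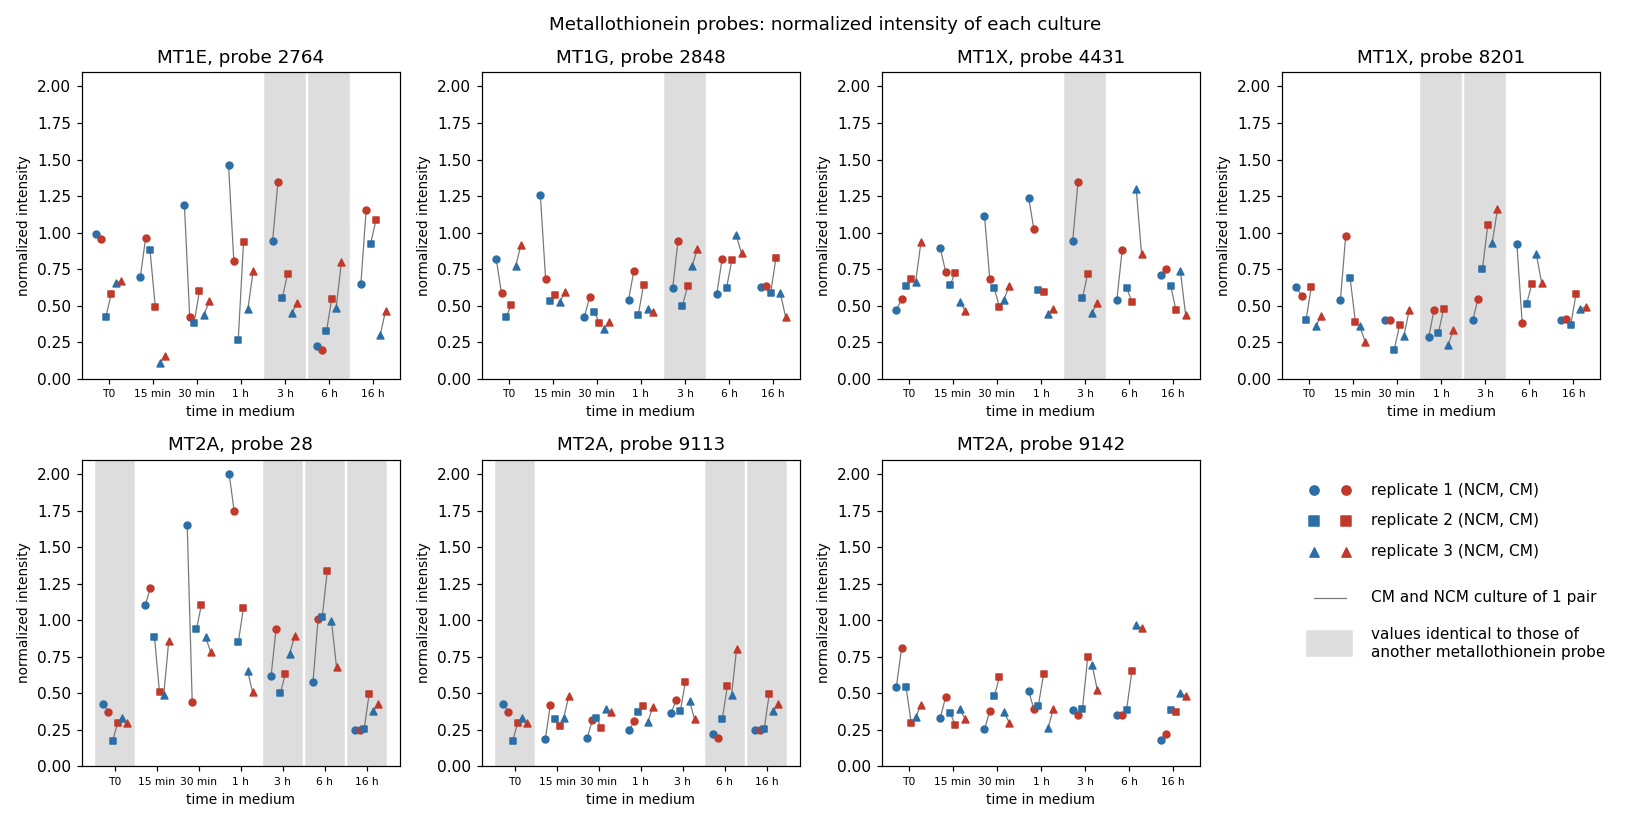
Normalized intensity of each metallothionein probe (1 panel per probe, linear axis) against time in the medium. Each symbol is 1 culture, red for CM and blue for NCM and shaped by replicate, a line joins the cultures of a pair, and grey bands mark values identical to those of another metallothionein probe. CM and NCM cultures overlap in every panel and time except MT1X probe 8201 at 1 h, where CM lies at 0.333 to 0.480 and NCM at 0.231 to 0.310.

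The plot of intensities by culture shows the spread within groups and the difference within each pair. In the fit a change is judged against the spread of the pair differences, so overlap of the groups is a description. Values below are normalized intensities in the order of experiments 1, 2 and 3, and a change is the log2 value in CM less that in NCM, with the SE from limma, whose spread is pooled over the pairs of all times. Intensities of different probes cannot be set against each other.

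MT1X, which encodes a metal-inducible member of the family, gave the largest ratio of change to error, on probe 8201 at 1 h. The CM cultures measured 0.468, 0.480 and 0.333 and the NCM cultures 0.282, 0.310 and 0.231. Every CM culture lay above every NCM culture, the 1 case among the 44 sets. At 1 h 2.4% of all probes were separated this way with CM higher. The change was 0.63 (SE 0.29), or 1.55-fold with a 95% interval of 1.02 to 2.36, and CM was higher in 3 of 3 pairs. limma gave an unadjusted p = 0.0428 and an adjusted p = 0.977, so it did not pass. The unadjusted p was 0.109 without the pairs as a block. The same values stand under MT1H probe 7553, where the smaller spread of that probe over all times gave an unadjusted p = 0.0179 and an adjusted p = 0.977 in limma.

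At 3 h and 16 h probe 8201 was also higher in CM in 3 of 3 pairs, and at the remaining times the pairs went in both directions. At T0 the CM cultures had 0.566, 0.628 and 0.428 and the NCM cultures 0.627, 0.402 and 0.359, a change of 0.25. At 15 min they had 0.978, 0.386 and 0.254 against 0.539, 0.688 and 0.358, a change of -0.16, with experiment 1 higher in CM and the other two lower. At 30 min the values were 0.403, 0.365 and 0.470 in CM and 0.404, 0.198 and 0.293 in NCM, a change of 0.52 (SE 0.29). Experiment 1 showed next to no difference there, and the groups overlapped. At 3 h the probe measured 0.548, 1.05 and 1.16 in CM and 0.400, 0.752 and 0.931 in NCM, higher in 3 of 3 pairs by 0.42, with values identical to MT1H probe 3848. At 6 h it measured 0.381, 0.649 and 0.656 in CM and 0.922, 0.512 and 0.853 in NCM, a change of -0.44. At 16 h it measured 0.411, 0.578 and 0.492 in CM and 0.404, 0.367 and 0.478 in NCM, a change of 0.24 with 3 of 3 pairs higher. The order of experiments differed from time to time, and while CM was above NCM in every pair at 1 h and 3 h, it was below NCM in 2 of 3 pairs at 6 h.

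Probe 4431 of MT1X did not follow probe 8201. Its CM values at T0 were 0.542, 0.680 and 0.936 and its NCM values 0.470, 0.632 and 0.662, higher in 3 of 3 pairs by 0.27. The groups overlapped at T0. In the reported fit the change at T0 is not subtracted from the later changes. At 15 min it had 0.730, 0.726 and 0.466 against 0.891, 0.642 and 0.523, a change of -0.09, and at 30 min 0.681, 0.490 and 0.632 against 1.12, 0.621 and 0.541, a change of -0.28. At 1 h, where probe 8201 had its largest change, probe 4431 had 1.02, 0.596 and 0.477 in CM and 1.24, 0.608 and 0.445 in NCM, a change of -0.07 (SE 0.23). It was lower in CM in 2 of 3 pairs. At 6 h it had 0.878, 0.528 and 0.852 against 0.537, 0.624 and 1.30, a change of -0.05. At 16 h it had 0.753, 0.470 and 0.435 against 0.708, 0.636 and 0.736, a change of -0.37 (SE 0.23), lower in 2 of 3 pairs. Over the 21 pair differences the probes of MT1X correlated at -0.20, and over the 42 values at 0.02.

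MT1E, a family member encoded between MT2A and MT1G, had a change above 0 at 6 of 7 times and the widest error, an SE of 0.40. At 3 h it shared with MT1X probe 4431 the values 1.35, 0.720 and 0.520 in CM and 0.945, 0.552 and 0.451 in NCM, higher in 3 of 3 pairs by 0.37. At 6 h it shared with MT2A probe 9113 the values 0.197, 0.547 and 0.801 in CM and 0.225, 0.325 and 0.487 in NCM, a change of 0.42 with 2 of 3 pairs higher. At 16 h, with values of its own, it measured 1.16, 1.08 and 0.465 in CM and 0.648, 0.921 and 0.301 in NCM. Each CM culture was above the NCM culture of its experiment, while the groups overlapped, with experiment 3 low in both media. The change was 0.56, or 1.48-fold, and limma gave an adjusted p = 0.942. The upper bound of its 95% interval, 2.63-fold, was the highest among the 44 sets.

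Earlier, MT1E varied more between experiments (SD of its log2 values) than between media (the change), except in CM at 1 h. At T0 it had 0.959, 0.578 and 0.667 in CM and 0.989, 0.424 and 0.651 in NCM, a change of 0.15. At 15 min experiment 3 was lowest in both media, with 0.962, 0.493 and 0.158 in CM and 0.694, 0.880 and 0.106 in NCM, a change of 0.07. At 30 min the values were 0.423, 0.598 and 0.528 in CM and 1.19, 0.382 and 0.434 in NCM, a change of -0.19. Experiment 1 alone was lower in CM there, with a log2 difference of -1.49. At 1 h the values were 0.806, 0.932 and 0.739 in CM and 1.46, 0.264 and 0.479 in NCM, a change of 0.53 with 2 of 3 pairs higher. The NCM culture of experiment 1 was the highest of the 42 MT1E values, and the range over all arrays was 13.8-fold.

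MT1G, another isoform of the metallothionein 1 group, was measured with less spread (SE 0.24). At 3 h it shared with MT2A probe 28 the values 0.942, 0.632 and 0.889 in CM and 0.619, 0.5004 and 0.769 in NCM. CM was higher in 3 of 3 pairs by 0.38 (1.30-fold), with overlapping groups. At 6 h MT1G had 0.817, 0.811 and 0.859 in CM, the group with the highest mean of the probe, against 0.580, 0.618 and 0.981 in NCM, a change of 0.23. The NCM culture of experiment 3 exceeded all CM cultures. At 1 h it had 0.738, 0.643 and 0.454 against 0.539, 0.436 and 0.478, a change of 0.31 with 2 of 3 pairs higher. At T0 it had 0.584, 0.503 and 0.916 against 0.820, 0.421 and 0.768, and at 16 h 0.636, 0.823 and 0.422 against 0.627, 0.584 and 0.587, each a change of 0.01. At 15 min it had 0.681, 0.572 and 0.596 against 1.26, 0.532 and 0.524, a change of -0.20 in which only experiment 1 was lower in CM. At 30 min it had 0.562, 0.384 and 0.387 against 0.425, 0.456 and 0.340, a change of 0.11.

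MT2A, the most widely expressed metallothionein gene, was read by 3 probes. Probe 28 had the values that differed most between times. At T0 it measured 0.375, 0.295 and 0.298 in CM and 0.425, 0.174 and 0.331 in NCM, and at 16 h 0.248, 0.498 and 0.427 against 0.252, 0.257 and 0.380, both shared with probe 9113. At 15 min, 30 min and 1 h, with its own values, it ran from 0.438 to 2.003, and at 3 h and 6 h, shared with MT1G and MT1H, from 0.5004 to 1.34. All 12 values at T0 and 16 h lay at or below 0.498. A difference in MT2A between these times and the sharing of values cannot be told apart on this probe.

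Within times, probe 28 had no steady direction. At 15 min the values were 1.22, 0.506 and 0.858 in CM and 1.10, 0.887 and 0.486 in NCM, a change of 0.05. At 30 min they were 0.438, 1.11 and 0.783 in CM and 1.66, 0.938 and 0.884 in NCM, a change of -0.62 (SE 0.35), lower in 2 of 3 pairs. It was the most negative change among the 44 sets and did not pass, and without experiment 1 it was 0.03. At 1 h the values were 1.75, 1.08 and 0.507 in CM and 2.003, 0.851 and 0.654 in NCM, a change of -0.07. At 6 h they were 1.01, 1.34 and 0.680 in CM and 0.579, 1.02 and 0.996 in NCM, a change of 0.21, shared with MT1H probe 3848. The change was 0.14 at T0 and 0.37 at 16 h, higher in 1 of 3 and 2 of 3 pairs.

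Probe 9113 of MT2A had a change above 0 at all 7 times, shared with other probes at T0, 6 h and 16 h. At 15 min it had 0.420, 0.276 and 0.481 in CM and 0.186, 0.322 and 0.334 in NCM, a change of 0.49 (SE 0.29) with 2 of 3 pairs higher. At 30 min it had 0.316, 0.265 and 0.373 against 0.192, 0.331 and 0.389, a change of 0.11. At 1 h it had 0.309, 0.413 and 0.403 against 0.247, 0.370 and 0.301, higher in 3 of 3 pairs by 0.30, with overlapping groups. At 3 h it had 0.453, 0.577 and 0.322 against 0.367, 0.379 and 0.446, a change of 0.15.

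Probe 9142, whose values were its own at all times, had changes of at most 0.26 in size. At T0 it had 0.808, 0.295 and 0.424 in CM and 0.541, 0.546 and 0.335 in NCM, and at 15 min 0.476, 0.284 and 0.327 against 0.334, 0.366 and 0.391, changes of 0.01 and -0.04. At 30 min it had 0.378, 0.612 and 0.300 against 0.253, 0.480 and 0.373, a change of 0.21, and at 1 h 0.392, 0.632 and 0.390 against 0.517, 0.415 and 0.264, a change of 0.26. CM was higher in 2 of 3 pairs at each of these times except 15 min, where it was in 1. At 3 h the values were 0.349, 0.749 and 0.520 in CM and 0.389, 0.392 and 0.693 in NCM, a change of 0.12. At 6 h they were 0.350, 0.650 and 0.947 in CM and 0.350, 0.385 and 0.965 in NCM, a change of 0.24 that experiment 2 alone carried. At 16 h they were 0.221, 0.375 and 0.485 in CM and 0.182, 0.386 and 0.4997 in NCM, a change of 0.06.

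**Figure D2:**
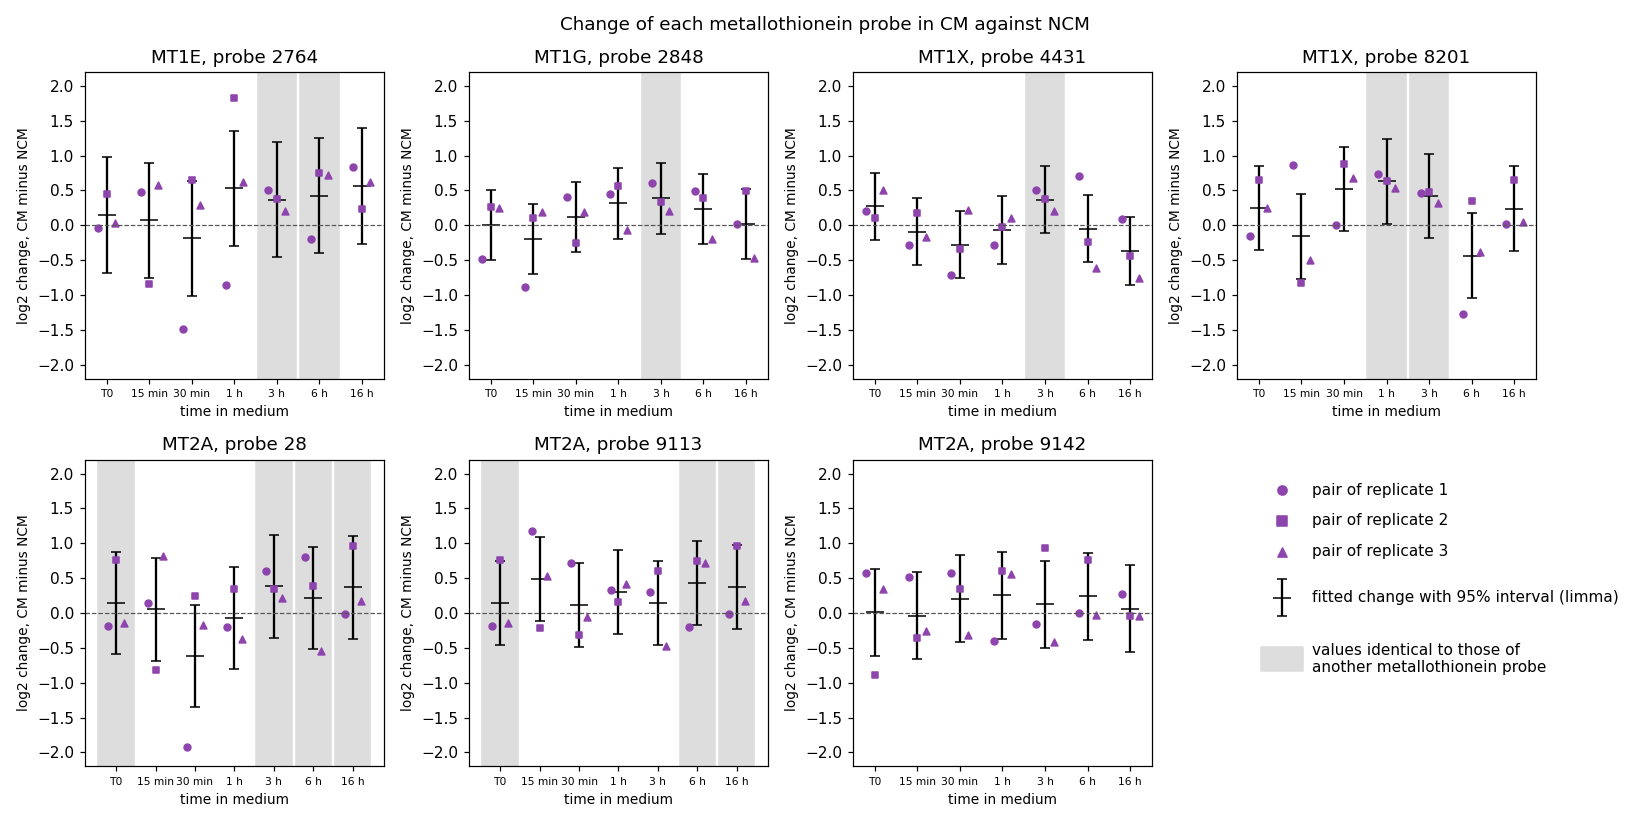
Log2 change of each metallothionein probe in CM against NCM by time, 1 panel per probe. Purple symbols are the 3 pair differences, shaped by replicate, the black bar is the fitted change with its 95% interval, and grey bands mark values identical to those of another metallothionein probe. Of the 44 distinct intervals 43 include 0, the exception being MT1X probe 8201 at 1 h.

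As the plot of changes by pair shows, the intervals bound how large a change these arrays could hide. Over the 44 sets the 95% intervals of the fold reached at most 2.63-fold up, for MT1E at 16 h, and down to 0.391-fold, for MT2A probe 28 at 30 min. Averaging 3 times narrowed them. In the late mean, over 3, 6 and 16 h, the highest upper bound of the 7 probes was 1.91-fold and the lowest lower bound 0.816-fold. At 3 h in data simulated with the spread pooled over all times, a log2 change of 0.5 was found in 3 of 50 probes. A change of 1 was found in 20 of 50 and 1.5 in 46 of 50. Changes of the size seen here are thus mostly below what the test can call. The simulated noise was independent, and 50 probes had a change at each of these sizes and at 2, which eases the adjustment. In these arrays 0 probes were called at 3 h, so recovery may be lower.

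As a family, the metallothioneins had their highest median change at 3 h with shared values counted once, and at 1 h without them. There the median over 5 distinct sets was 0.37 with a range of 0.12 to 0.42, all 5 above 0 and 3 of them higher in 3 of 3 pairs, a pattern that 14.6% of all probes had. The median of all probes was 0.00. The medians within the 3 pairs were 0.46, 0.48 and 0.21 (SD 0.15). Without the values shared between probes, only the 2 sets of MT2A probes 9113 and 9142 remained, with a median of 0.13. At 1 h the median over 7 sets was 0.30, from -0.07 to 0.63, with 5 above 0, and 0.28 without shared values. Its pair medians were -0.20, 0.56 and 0.42, so experiment 1 went against the others.

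At the remaining times the family median was nearer to 0 or depended on single pairs. At T0 it was already 0.15 over 6 sets, all above 0, with pair medians of -0.10, 0.35 and 0.25. It was -0.04 at 15 min, with 3 of 7 sets above 0, and 0.11 at 30 min, with 4 of 7. At 6 h it was 0.22 with 4 of 6 sets above 0, and at 16 h 0.15 with 5 of 6, and without shared values it was 0.09 and 0.06. The pair medians spread widely at 15 min (0.47, -0.37 and 0.19) and at 6 h (0.25, 0.39 and -0.29). Over the 7 times, 15 of 21 pairs had a median above 0. The median of all probes was above 0 in as many pairs, so this count is not particular to the family. Within single pairs that median of all probes ran from -0.083 at 30 min to 0.032 at 15 min. The lowest to highest median of all probes over the times was -0.01 to 0.01.

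**Figure D3:**
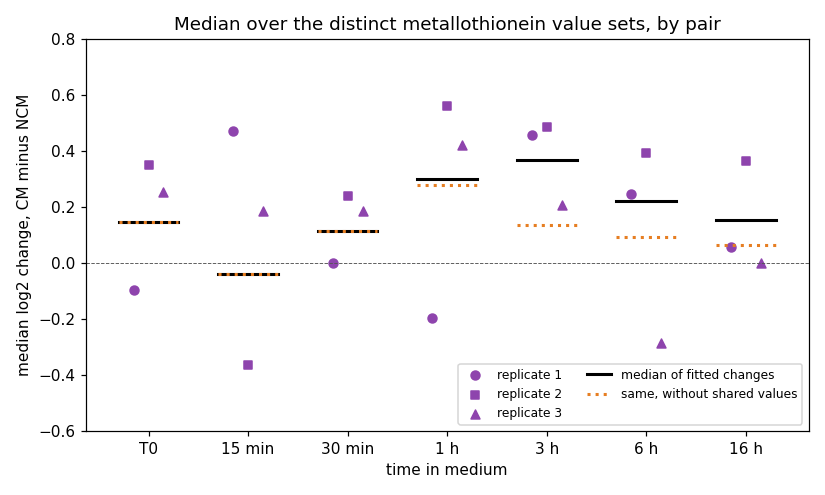
Median log2 change in CM against NCM over the distinct sets of metallothionein values, by time. Purple symbols are the 3 pairs, shaped by replicate, the solid black bar is the median of the fitted changes and the dotted orange bar the same without values shared between probes. At 3 h these bars lie at 0.37 and 0.13, and at T0 at 0.15 and 0.15.

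Set against all probes, most of the metallothionein changes lay between the 5th and 95th percentile, but most also lay outside the 25th to 75th. Of the 44 sets, 18 lay between the 25th and 75th percentile of all probes at their time and 38 between the 5th and 95th. Above the 95th percentile, where 5% of all probes lie by definition, were 5 of the 44 sets. These were MT2A probe 9113 at 15 min, MT1X probe 8201 at 30 min and 1 h, and MT1E at 1 h and 16 h. The 1 set below the 5th percentile was MT2A probe 28 at 30 min.

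**Figure D4:**
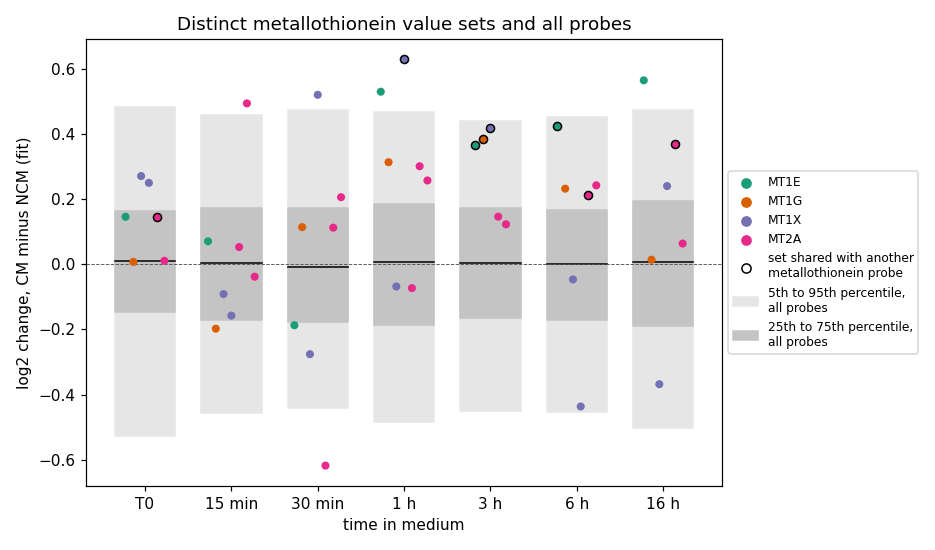
Fitted log2 change in CM against NCM of each distinct set of metallothionein values (points, coloured by gene, ringed in black where shared between probes). The dark and light grey bands run from the 25th to the 75th and from the 5th to the 95th percentile of all 13824 probes at each time, with a line at their median. Of the 44 points, 38 lie between the 5th and 95th percentile and 5 lie above the 95th.

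Averaging 3 times brought no probe past the threshold. In the early mean, over 15 min, 30 min and 1 h, limma called 0 of the 7 probes (adjusted p 0.711 to 0.945), where 0% of all probes were called, and 0 had an unadjusted p under 0.05, where 7% of all probes did. MT1X probe 8201 had 0.33 there, higher in 6 of 9 pairs, and MT2A probe 9113 had 0.30, also in 6 of 9. MT1E had 0.14 and MT1G 0.08, each higher in 6 of 9, and MT2A probe 9142 had 0.14 in 5 of 9. MT1X probe 4431 had -0.15, higher in 3 of 9, and MT2A probe 28 had -0.21, higher in 4 of 9. In the late mean, 0 of 7 probes were called (adjusted p 0.827 to 0.996), where 0.0434% of all probes were, and 0 had an unadjusted p under 0.05, where 5.98% of all probes did. MT1E had 0.45 (SE 0.23) with 8 of 9 pairs higher, MT2A probe 28 had 0.32 with 7 of 9 and MT1G 0.21 with 7 of 9. MT2A probe 9113 had 0.31 with 6 of 9, MT1X probe 8201 0.07 with 7 of 9 and MT1X probe 4431 -0.02 with 5 of 9. MT2A probe 9142, whose values were its own throughout, had 0.14 with 3 of 9 pairs higher. The median over the 7 probes was 0.14 in the early and 0.21 in the late mean, against 0.00 and 0.01 for all probes. The shared values enter these means.

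Whether a change differed between times was tested directly. In the late mean minus the early mean, limma called 0 of 7 probes, against 0% of all probes, and 0 had an unadjusted p under 0.05, against 7.49%. The largest difference was 0.53 for MT2A probe 28 (adjusted p = 0.717). limma's F test of a change at any time after T0, which does not compare times, called 0 of 7 probes, against 0% of all probes. Its F test of differences in the change between times also called 0 of 7 probes (adjusted p 0.9996 in each), against 0% of all probes. Over the 21 pairs of times and 7 probes, 147 differences in all, 0 had an adjusted p under 0.05 in limma. At every pair of times 0% of all probes did. In limma 3 of the 147 had an unadjusted p under 0.05. The share over all probes was not computed, so this count is not read as a result about the family. The 3 differences were on MT1X. For probe 8201 the change at 6 h less that at 1 h was -1.07, and less that at 30 min -0.96. For probe 4431 the change at 16 h less that at 3 h was -0.74. Values were shared for probe 8201 at 1 h, probe 4431 at 3 h and MT2A probe 28 at 3, 6 and 16 h. A difference between times and the sharing cannot be told apart there. Probe 8201 had its own values at 30 min and 6 h. In 0 of the 147 did all pairs of the later time go against all pairs of the earlier.

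Levels within 1 medium did not pass either. Between times, limma's F test called 0 of 7 probes in NCM and 0 of 7 in CM, against 0.0145% and 0.00723% of all probes. In NCM 2 had an unadjusted p under 0.05, MT2A probe 28 and MT1X probe 8201, and in CM 1 did, MT2A probe 28 (adjusted p 1.00 in each), against 1.67% and 1.18% of all probes. For MT2A probe 28 the difference runs with the probe whose values it shared. MT1X probe 8201 had the values of different MT1H probes at 1 h and 3 h. Groups were ordered by their mean log2 value and neighbours compared on that scale, while the means below are intensities. For MT1X probe 8201, the order of 14 groups ran from 0.919 ± 0.326 (SD, n = 3) in CM at 3 h to 0.274 ± 0.040 in NCM at 1 h, and 1 of 13 neighbours in that order differed by more than their SD. MT1G ran from 0.829 ± 0.026 in CM at 6 h to 0.407 ± 0.060 in NCM at 30 min, with 1 of 13 neighbours apart. MT1E ran from 0.901 ± 0.380 in CM at 16 h to 0.346 ± 0.132 in NCM at 6 h, MT1X probe 4431 from 0.862 ± 0.431 in CM at 3 h to 0.553 ± 0.174 in CM at 16 h, and neither had neighbours apart. MT2A probe 28 ran from 1.16 ± 0.43 in NCM at 30 min to 0.310 ± 0.127 in NCM at T0, with 1 of 13 apart, although by mean intensity NCM at 1 h was highest, with 1.17 ± 0.73, and NCM at 16 h lowest, with 0.296 ± 0.073. Probes 9113 and 9142 were highest in CM at 6 h, with 0.515 ± 0.304 and 0.649 ± 0.299. They were lowest in NCM at 15 min and 16 h, with 0.281 ± 0.082 and 0.356 ± 0.161, and neither had neighbours apart. Both ends named for MT1X probe 8201 were values shared with MT1H. The low ends for MT1E and MT2A probe 28 were also shared. So were the high ends for MT1X probe 4431 and MT2A probe 9113. Level and sharing cannot be told apart in these groups. At 16 h against T0, limma called 0 of 7 probes in either medium, against 0% of all probes, and 0 had an unadjusted p under 0.05, against 3.76% in NCM and 1.29% in CM.

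The changes of the probes had no common course, while their levels correlated weakly. Leaving out times at which a pair of probes had the same values, the 21 correlations among the 7 probes, over 15 to 21 pair differences each, had a median of 0.00, from -0.47 for MT1X probe 4431 with MT2A probe 9113 to 0.58 for MT1E with MT2A probe 28, and the median among 734 other probes was -0.00. The highest of these rests on few pairs, since it was 0.29 without experiment 1 at 30 min and 0.08 when experiment 2 at 15 min was left out too. Over the 30 to 42 values the median was 0.19, against 0.00 among the 734 other probes, from -0.22 for MT2A probes 28 and 9113 to 0.54 for MT2A probes 9113 and 9142. Values that 1 of the probes shares with another probe, and common arrays, enter these correlations, which are descriptions. Probes most like a member over the 42 values were ASNSD1 for MT1E (r = 0.55), MYLIP for MT1G (0.62), CLPTM1L and SGK1 for MT1X probes 4431 and 8201 (0.78 and 0.52), and CA5A, LTBP4 and SRSF2 for MT2A probes 28, 9113 and 9142 (0.56, 0.74 and 0.69). Over the 21 pair differences they were PDCD10 for MT1E (0.76), COL27A1 for MT1G (0.82), RALGAPA2 and ZNF33B for MT1X (0.76 and 0.77), and ACTR10, CFAP221 and TIA1 for MT2A (0.69, 0.79 and 0.83). Each is the highest of 7327 to 7329 single-gene probes that share the arrays. Next in order over the values were RAB17 and SNX6 for MT1E, RSRP1 and APOM for MT1G, POR and CORO1C for MT1X probe 4431, PHLDA1 and HDAC3 for probe 8201, MRPL15 and WHR1 for MT2A probe 28, FPGT and TIGD5 for probe 9113, and NR3C2 and PPP1R12B for probe 9142 (r from 0.45 to 0.78). Over the pair differences they were VAMP3 and MDN1, RBX1 and ACAA1, CXCL9 and ASH2L, WIPI2 and MTG2, DAZAP1 and LRRC20, FPGT and MIB2, and NT5DC1 and ZC3H18, in the same order of member probes (r from 0.63 to 0.79). No name served more than 1 member probe.

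Further metallothioneins had 4 probes. MT1H, also a member of the cluster, had on probe 3848 a change of 0.43 at 1 h and 0.42 at 3 h, the latter shared with MT1X probe 8201 and higher in 3 of 3 pairs. Its probe 7553 had 0.63 at 1 h, shared with MT1X probe 8201, and -0.15 at 3 h. The probe that names both MT1JP and MT1F had 0.25 at 3 h and 0.00 at 1 h, and the probe that names both MT1M and MT1B had 0.17 and -0.15. None of them passed in limma at any time. At single times 1 of the 4, MT1H probe 7553 at 1 h, had an unadjusted p under 0.05, where 4.38% of all probes did. These are the values already counted under MT1X probe 8201. In the early mean, which they enter, probe 7553 had 0.30 (limma, unadjusted p = 0.0447, adjusted p = 0.694), where 7% of all probes had an unadjusted p under 0.05.

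Genes of metal handling did not pass the test in either direction. Of the 26 listed genes for metal-responsive transcription and zinc transport, 12 were measured, limma called 0 at every time, and the median change was between -0.01 and 0.17 over the 7 times, 0.01 at 3 h. At 1 h 0 of the 12 were higher and 2 lower at an unadjusted p under 0.05: the zinc importers SLC39A11, with -0.68 (SE 0.21), and SLC39A1, with -0.54 (SE 0.21), each lower in 3 of 3 pairs (adjusted p 0.977 in limma). Over all probes at 1 h, 2.29% were higher and 2.08% lower at that p. Of 13 genes of copper handling, 5 were measured and 0 called. At 15 min their median was -0.44 with 1 above 0, against 50.4% of all probes. CCS, the copper chaperone of superoxide dismutase, had -0.48 there, and COX17, the copper chaperone of cytochrome oxidase, -0.59. Of 15 genes of iron handling, 11 were measured and 0 called, with medians between -0.11 and 0.08; at 15 min STEAP3, a metalloreductase, had -0.47 and NCOA4, the ferritin receptor of autophagy, -0.48.

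The pathways that act on metallothionein genes were likewise not called. Of 23 antioxidant genes and NRF2 targets 18 were measured and 0 called, with medians between -0.09 and 0.08. Among them, at 6 h, HMOX1, the heme oxygenase gene and itself a target of metals, had 0.64 (SE 0.27, higher in 3 of 3 pairs, adjusted p 1.00 in limma), and the catalase gene CAT had -0.51. Of 17 genes of the glucocorticoid receptor and its targets 12 were measured and 0 called, with medians between -0.08 and 0.11; at 6 h TSC22D3 had 0.53 and ANGPTL4 -0.70. Of 21 genes of interleukin-6 signalling and STAT3 targets 19 were measured and 0 called. Their median was 0.16 at 1 h, with 15 above 0, and 0.15 at 6 h, with 12 above 0, against 0.04 at 3 h. Of all probes, 51.2% were above 0 at 1 h and 49.9% at 6 h. The metallothionein median was highest at 3 h with shared values counted once, and at 1 h, with 0.28, without them. A link between the list and the metallothioneins was not tested. Over the 7 times, between 0 and 4 of the 19 listed genes were higher at an unadjusted p under 0.05, most at 6 h, where 2.21% of all probes were. At 6 h 1 of the 19 was lower at that p, as were 1.56% of all probes. The transcription factor genes CEBPD, with 1.14, and MYC, with 0.92, had the smallest p of the list, at 1 h (adjusted p 0.977 in limma, each higher in 3 of 3 pairs). The median of all probes lay between -0.01 and 0.01 at each time.

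None of the marker lists had a gene past the threshold in limma at any time. The smallest p of the hepatocyte list came at 6 h, with 0.68 for the fibrinogen gene FGB and -0.57 for the apolipoprotein gene APOA1. In the endothelial list PECAM1 had 0.80 and TEK -0.32 at 6 h. At 16 h the fibroblast genes COL1A1 and DCN had 0.47 and 0.18, the leukocyte genes PTPRC and CD14 -0.42 and 0.22, and CD3D -0.48. Their part in the metallothionein values was not tested.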

How the data were processed

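RNA of 42 Hep3B cultures was measured, 1 array each. The deposited values are linear intensities with 1 value per probe and array, a mean near 1 on every array and at most 2.12% of values below 0, as read from the deposited table itself. The sources used here give no array type, scanner, background or scaling step. The arrays were quantile normalized, a floor at their common 1st percentile (0.0812) was applied, and values were put on the log2 scale. limma 3.58.1 in R 4.3.3 fitted each pair's level and a CM effect at each time to all arrays (14 residual and 6.26 prior degrees of freedom), with two-sided moderated tests, Benjamini-Hochberg adjustment over 13824 probes and a threshold of 0.05. Times within a medium were fitted on its 21 arrays without a block. Pairs come from the labels, and deviations within pairs correlated at 0.308 to 0.754.

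Every probe naming only MT1E, MT1G, MT1X or MT2A was reported. Of each gene list, those past the threshold or the 2 with the smallest p were named, and for each probe the 3 single-gene probes most correlated with it. The members, lists, means over 3 times and alternatives were chosen with earlier results of these data known. Gene names were matched to RefSeq's table for GRCh38.p14. Metallothionein value sets were called identical with no tolerance. The steps were tested on simulated data: at 3 h, with 13824 probes, 3 of 50 changed probes were recovered at 0.5, 20 at 1, 46 at 1.5 and 48 at 2, and 5 unchanged probes were called. Alternatives covered the block, normalization, floor, dim probes, spread model, array weights, neighbouring probes, T0, single times and replicates left out. Plots used matplotlib 3.10.9.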

Additional observations from a re-analysis of the deposited data

How the results depend on the processing

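No metallothionein change passed the threshold under any alternative tried: of 762 values of the 58 member changes under alternatives, 0 did, and the lowest adjusted p was 0.157 (limma, MT1X probe 8201 at 15 min with array weights). Signs were less firm, since 67 of the 762 values turned direction, 37 of them when a replicate was left out, and the cause was not tested. Of 93 values of the family's median change, 6 moved by more than the spread between pairs. At 30 min the median went from 0.11 to -0.018 with median centring, 0.25 with array weights, -0.13 with neighbour centring and -0.033 minus the change at T0. At 3 h it went from 0.37 to 0.17 minus the change at T0, and to 0.13 without copied values, an alternative chosen after seeing the data that leaves 2 sets.

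Without the pairs as a replicate block, 0 probes were called at 16 h and 0 in the late mean over 3, 6 and 16 h, against 1 and 6 with it, and with a replicate block between times 2 were called in NCM and 1 in CM, as without it. It changed no call of a metallothionein. With the values as deposited the counts were 0 at 16 h, 1 in the late mean and 1 between times in NCM, where the reported fit had 2. With median centring they were 0, 1 and 1, and 2 between times in CM, where it had 1. A floor at the 10th percentile gave 1 at 3 h, where the reported fit had 0, and 2 at 16 h. Leaving out the dimmest 25% of probes gave 1 at 3 h, 2 at 16 h and 2 between times in CM. Leaving out the dimmest 50% gave 1, 7 and 2, and 1 in the late minus the early mean. An intensity trend with robust spread gave 1 at 3 h, 3 at 16 h, 10 in the late mean, 2 at any time after T0 and 2 between times in CM. Array weights gave 531 at 15 min, where the reported fit had 0, and 1 at 1 h, 2 at 3 h, 6 at 16 h, 6 in the early mean, 14 in the late mean, 3 in their difference, 15 at any time and 3 between times in CM. At 16 h neighbour centring gave 5, the change minus that at T0 gave 0 (0 in the late mean also), and each time fitted alone gave 0. With a replicate left out, the count was 0 to 1 at 1 h (1 without replicate 2), 0 at 16 h, 0 in the late mean, 0 between times in NCM and 0 to 1 in CM (0 without replicate 2 or 3). The cause of these shifts was not tested.

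Reversed member values, none of which passed in either direction, were as follows. With the values as deposited, MT1G had -0.20 at T0 and -0.022 at 16 h, MT2A probe 9142 had -0.038 and -0.26, MT1E had -0.13 at 15 min and 0.013 at 30 min, and MT1X probe 4431 had 0.011 at 30 min. With median centring, MT1G had -0.085 at T0, MT1E -0.16 at 15 min, MT2A probe 9113 -0.018 at 30 min, MT2A probe 28 0.057 at 1 h, and MT2A probe 9142 -0.18 at 16 h and -0.0034 in the early mean. With the floor at the 10th percentile, MT2A probe 28 had -0.0046 at T0, MT1E -0.12 at 15 min and MT2A probe 9142 -0.029 at 16 h. With array weights, MT1G had -0.13 at T0 and 0.11 at 15 min, and MT2A probe 28 -0.032 at T0. With neighbour centring, MT1E had -0.042, MT1G -0.055 at T0, MT2A probe 28 -0.14 at 15 min, MT2A probe 9113 -0.29 at 30 min and MT1X probe 4431 0.060 at 1 h. Minus the change at T0, MT1E had -0.075 at 15 min and -0.0080 in the early mean, MT2A probe 28 -0.092 at 15 min, MT2A probe 9113 -0.033 at 30 min, and MT1X probe 8201 -0.0098 at 16 h and -0.18 in the late mean.

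Leaving out each replicate in turn gave these lowest to highest changes where the sign turned. At T0 they were -0.0046 to 0.24 for MT1E, -0.12 to 0.25 for MT1G, -0.16 to 0.31 for MT2A probe 28 and -0.27 to 0.46 for probe 9142. At 15 min they were -0.18 to 0.52 for MT1E, -0.39 to 0.15 for MT1G, -0.23 to 0.0065 and -0.67 to 0.18 for MT1X probes 4431 and 8201, and -0.33 to 0.48 and -0.31 to 0.13 for MT2A probes 28 and 9142. At 30 min they were -0.60 to 0.46 for MT1E, -0.031 to 0.30 for MT1G, and -1.05 to 0.032 and -0.19 to 0.33 for MT2A probes 28 and 9113. At 1 h they were -0.12 to 1.22 for MT1E, -0.15 to 0.036 for MT1X probe 4431 and -0.28 to 0.074 for MT2A probe 28. At 3 h they were -0.084 to 0.45 and -0.28 to 0.39 for MT2A probes 9113 and 9142. At 6 h they were -0.42 to 0.23 for MT1X probe 4431 and -0.079 to 0.60 and -0.014 to 0.38 for MT2A probes 28 and 9142. At 16 h they were -0.23 to 0.26 for MT1G and -0.044 to 0.12 for MT2A probe 9142. In the early mean they were -0.066 to 0.52 for MT1E and -0.37 to 0.0083 for MT2A probe 28, and in the late mean -0.24 to 0.17 and -0.14 to 0.24 for MT1X probes 4431 and 8201 and -0.060 to 0.29 for MT2A probe 9142. Medians were not computed where a filter on dim probes left out a member.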
